A study of Homo sapiens with 12 samples.

Results

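H1650 cells under osimertinib were compared with PC9 cells under the same drug, which asks which differences between the lines exist in the treated state. The comparison holds 4 of the 12 RNA-seq libraries of the study: 2 H1650 and 2 PC9 libraries labelled osimertinib, 36 h. Both are established lung cancer lines that carry the same activating EGFR deletion, and the study asked whether gene expression accounts for the death of PC9 cells, and not of H1650 cells, under EGFR inhibitors. Osimertinib was given at 0.1 μM for 36 h. The other libraries were 2 of each line at T0 (0.1% DMSO, collected at the time of drugging) and 2 of each line after 36 h with 10 μM erlotinib. Each line stands for a single tumour, and neither the drug nor the deletion is varied in the comparison of the lines. The T0 libraries had no drug and 36 h less in culture, so drug and time cannot be told apart in any change from T0.

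EGFR is a receptor tyrosine kinase whose mutant form signals without ligand through the ERK and PI3K pathways. Osimertinib binds the kinase covalently and blocks both. ERK output sustains cyclin D and the E2F factors that switch on DNA replication genes, and it also induces its own inhibitors, so genes of that feedback loop serve as readouts of the pathway. Loss of ERK and PI3K signals raises BH3-only proteins, which bind BCL2 family members at mitochondria and can start apoptosis.

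The 4 osimertinib libraries held between 18550718 and 22060986 counted reads, and a count of 0 in them allows up to 3 reads, or 0.134 to 0.168 CPM (reads scaled to a common library size). That limit covers counting error only. Of 60591 genes in the table, 19108 passed the expression filter and were tested. Mitochondrial genes took 6.32% to 7.20% of reads in PC9 and 5.77% to 6.56% in H1650. Both lines had the epithelial markers of their label, with summed CPM of 24 epithelial adhesion genes from 4980 to 5250 in PC9 and from 5070 to 5540 in H1650. The lung lineage factor NKX2-1 had 1 read over the 4 libraries, and SFTPB, a surfactant protein gene, had 0. Fibroblast marker genes summed to 38.3 to 46.3 CPM in PC9 and 43.5 to 44.8 CPM in H1650. Leukocyte genes reached 6.01 to 6.22 and 27.3 to 29.7 CPM, with 0 reads for CD3D, CD3E and MS4A1 in all 4 libraries, and their part in the differences was not tested. Most of the leukocyte sum came from CSF1R, the receptor of a macrophage growth factor, with 25.2 and 23.56 CPM in H1650 and 4.99 and 5.05 CPM in PC9 (log2 difference 2.28, adjusted p = 5.28e-15 by edgeR). The counts come from whole cultures, in which fewer cells of a kind and less RNA per cell cannot be told apart.

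Under osimertinib, 13688 of 19108 tested genes (71.6%) differed between the lines, with adjusted p-values under 0.05 (quasi-likelihood F test of edgeR, adjusted by Benjamini and Hochberg over all tested genes). H1650 was higher for 7002 genes (36.6%) and PC9 for 6686 (35.0%). The difference exceeded 2-fold for 7813 genes and 4-fold for 4400, and the median size over all tested genes was 0.85 on the log2 scale. Log2 differences are given throughout as H1650 minus PC9, so positive values are higher in H1650. At T0, 13305 genes (69.6%) were called and the median size was 0.80. Nothing in the labels states that the replicates came from separate cultures, so the p-values measure the spread between these libraries.

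Most differences of the treated state were present at T0. Of the 13688 genes, 9412 (68.8%) were also called at T0 in the same direction, 1318 (9.63%) were called at T0 in the opposite direction, and 2958 (21.6%) were not called at T0. Where a difference over 2-fold was required in both states, 188 genes were called in opposite directions. A further 2575 genes were called at T0 alone. The change of the line difference from T0 to osimertinib was itself tested and called for 8014 genes (41.9%), of which 4103 (21.5%) moved toward H1650 and 3911 (20.5%) toward PC9. It was called for all 1318 genes that turned and for 1645 of the 2958 genes that were not called at T0. For genes that turned this outcome was nearly fixed in advance, since both of their differences were called with opposite signs. Where both states were called with the same sign, the difference widened for 1872, narrowed for 1664 and had no called change for 5876. Across the 19108 genes, which are not independent replicates, the osimertinib and T0 differences share no library. Their Pearson r was 0.83 (0.784 with genes at 0 reads set to their bound) and their Spearman rho 0.703.

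**Figure D1:**
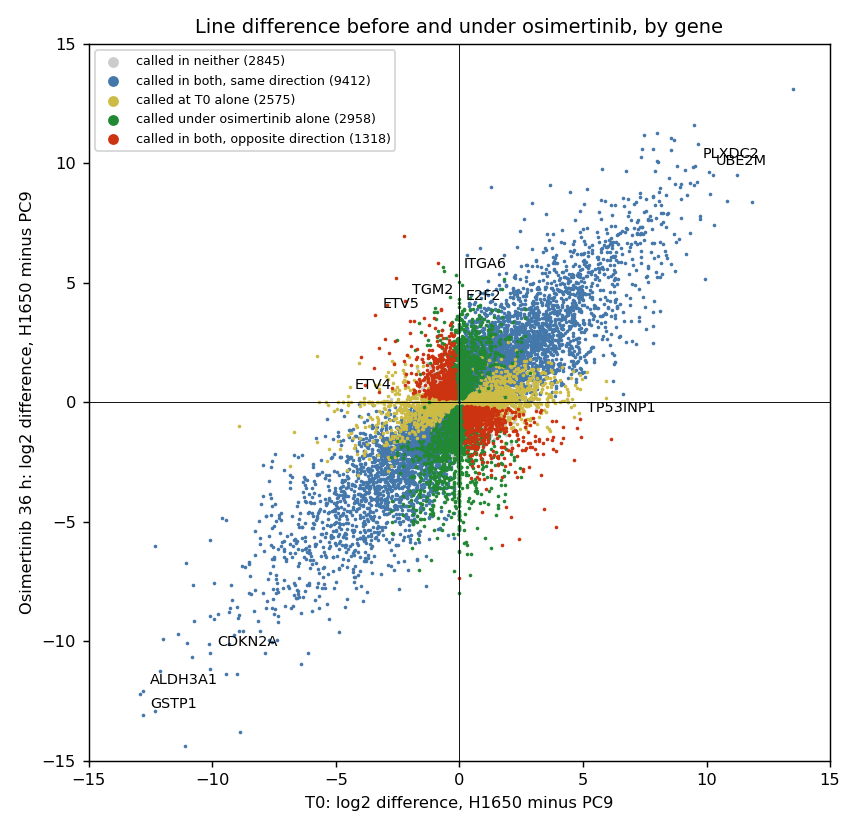
Log2 difference between H1650 and PC9 at T0 (x axis) and under osimertinib for 36 h (y axis), 1 point per tested gene (19108), coloured by where the difference was called; genes with 0 reads in both libraries of a line are drawn at their bound against 3 reads. The 9412 blue points lie along the diagonal, and the 1318 red points lie in the quadrants where the sign turned.

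The movement that turned these differences was larger in PC9. Between T0 and osimertinib, 1225 of the 1318 turned genes (92.9%) moved further in PC9 than in H1650, with a median size of 1.51 in PC9 and 0.37 in H1650 (log2 of mean CPM plus 0.5). PC9 also moved further for 88.5% of the 1645 genes that were called under osimertinib but not at T0, with a called change. In the other classes with a called change, the share was 82.9% for widened and 84.2% for narrowed differences. It was 86.7% for genes called at T0 alone, so the larger movement in PC9 was not particular to genes that turned. Where the difference kept its direction without a called change, the share was 58.7%. These are descriptions of classes made with the same libraries, and carry no test.

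The genes with the 6 highest and 6 lowest fitted differences at a mean of 10 CPM or more were read in 1 line alone. In H1650 these were PLXDC2, PRAME, NPTX2, UBE2M, IRX5 and CNNM1, and in PC9 GSTP1, CDKN2A, CDKN2B, NRCAM, NR0B1 and MAGEA3. PRAME, a cancer testis antigen, had 144.8 and 136.4 CPM in H1650 and 0 reads in both PC9 libraries, at least 916-fold higher. PLXDC2, a transmembrane protein of the plexin domain family, had 151.5 and 144.2 CPM in H1650 and 0 reads in PC9, at least 964-fold higher. NPTX2, a neuronal pentraxin, was at least 849-fold higher in H1650. GSTP1, which conjugates glutathione to electrophiles, had 1180 and 1305 CPM in PC9 and 0 reads in both H1650 libraries, at least 8980-fold lower in H1650. NRCAM, a neuronal adhesion molecule, and NR0B1, an orphan nuclear receptor, reached 151.4 and 154.4 and 139 and 135.7 CPM in PC9, and both had 0 reads in H1650. The bounds were computed against 3 reads per library, and the fitted folds of these genes are not given since they depend on the prior count, so these genes are not ranked against genes read in both lines.

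With a limit of 3 reads in each library of 1 line and a mean of at least 10 CPM in the other, 125 genes were read in H1650 alone and 84 in PC9 alone. Of the 125, 110 were also within the limit in both PC9 libraries at T0 and 112 in both under erlotinib. Of the 84, 64 were within it in H1650 at T0 and 67 under erlotinib. FGFR2, the FGF receptor that can sustain survival signals beside EGFR, belonged to the first set with 60.38 and 52.69 CPM in H1650 and 0 reads in PC9, at least 368-fold higher.

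A few of these genes were neighbours on a chromosome. UBE2M, which charges cullins with NEDD8, lies at chr19:58555712-58558611 near the end of the long arm and had 123.8 and 123.2 CPM in H1650 under osimertinib and 0 reads in all 6 PC9 libraries. The next 2 tested genes outward, MZF1-AS1 and the zinc finger gene MZF1, also had 0 reads in all 6 PC9 libraries, with 55.2 and 72.2 CPM for MZF1 in H1650. MZF1 was the last tested gene of the arm. The next gene inward, the ESCRT component CHMP2A, had 106 and 121 CPM in PC9 and 103 and 103 CPM in H1650. The adjacent TRIM28 had 339 and 358 CPM in PC9. This run of genes was chosen after its values were seen.

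In H1650 the run without reads lay at chromosome 9p21. CDKN2A, which encodes the cell cycle inhibitors p16 and ARF, lies at chr9:21967752-21995324 and had 217.5 and 197.3 CPM in PC9 and 0 reads in H1650. CDKN2B, a further CDK4 and CDK6 inhibitor, had 197.4 and 208.8 CPM in PC9 under osimertinib, 8.72 and 8.89 CPM in PC9 at T0, and 0 reads in H1650 in both states. MTAP, which salvages methionine, had 39.45 and 40.7 CPM in PC9 and 4 and 6 reads in H1650. HACD4, further along the arm, had 26.7 and 27.2 CPM in PC9 and 0.573 and 0.668 CPM in H1650. Of the other genes of the region, KLHL9 had 63.48 and 60.84 CPM and FOCAD 48.02 and 47.08 CPM in H1650. CDKN2B-AS1, which lies over both inhibitor genes, had 0 reads in H1650, and the interferon gene IFNE had 9 and 12 reads in H1650 and 14 and 17 in PC9. The 10 listed neighbours divided into 3 higher in H1650, 6 higher in PC9 and 1 not called. Over all tested genes, 36.6% were higher in H1650 and 35.0% in PC9.

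**Figure D2:**
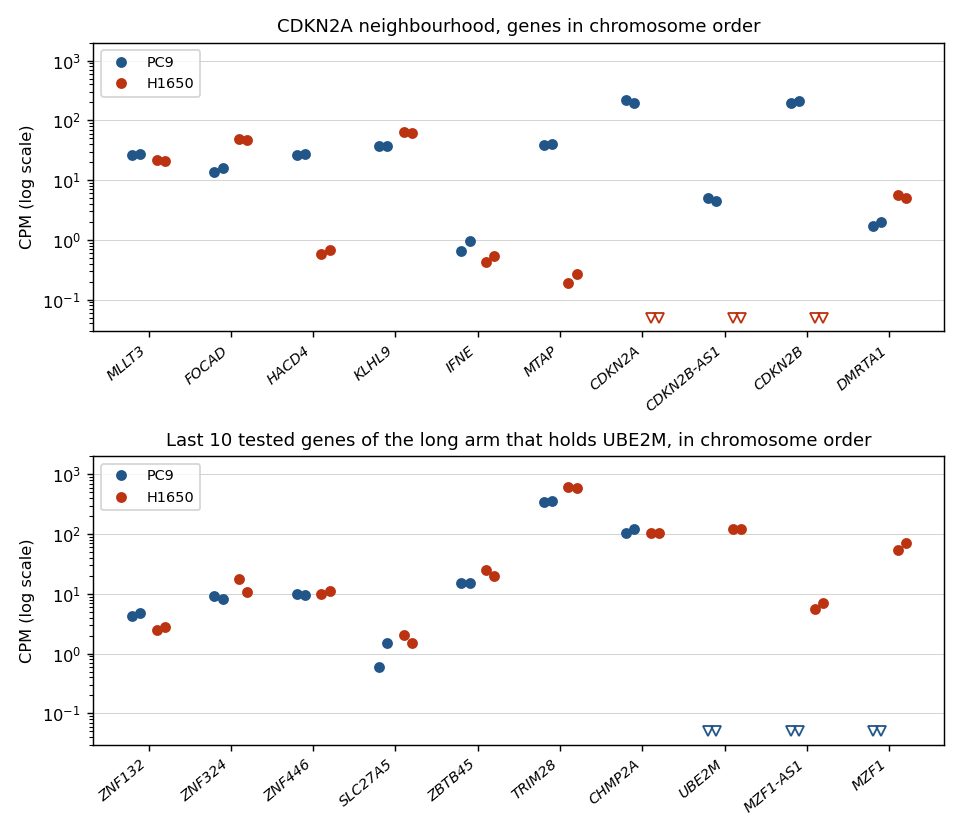
CPM (log axis) of 10 genes around CDKN2A (top) and of the last 10 tested genes of the chromosome arm that holds UBE2M (bottom), in chromosome order, under osimertinib; each point is 1 library and an open triangle marks 0 reads. H1650 has 0 reads at CDKN2A, CDKN2B-AS1 and CDKN2B, and PC9 has 0 reads at UBE2M, MZF1-AS1 and MZF1.

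Larger parts of chromosomes differed by smaller amounts, and these differences were much the same at T0. Over 15890 tested genes with a RefSeq position, the median log2 difference under osimertinib was lowest on chromosome 13 (-0.76, against -0.88 at T0) and X (-0.47, against -0.41). It was highest on chromosomes 21 (0.55, against 0.56 at T0), 20 (0.51, against 0.48) and 5 (0.40, against 0.24). PC9 was called higher for 65.2% of 276 tested genes of chromosome 13 and for 21.4% of 448 genes of chromosome 20. The share over all tested genes was 35.0%. Over the 23 chromosomes, no median under osimertinib lay further than 0.159 from that at T0. The values describe expression, and DNA copy number was not analysed here.

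**Figure D3:**
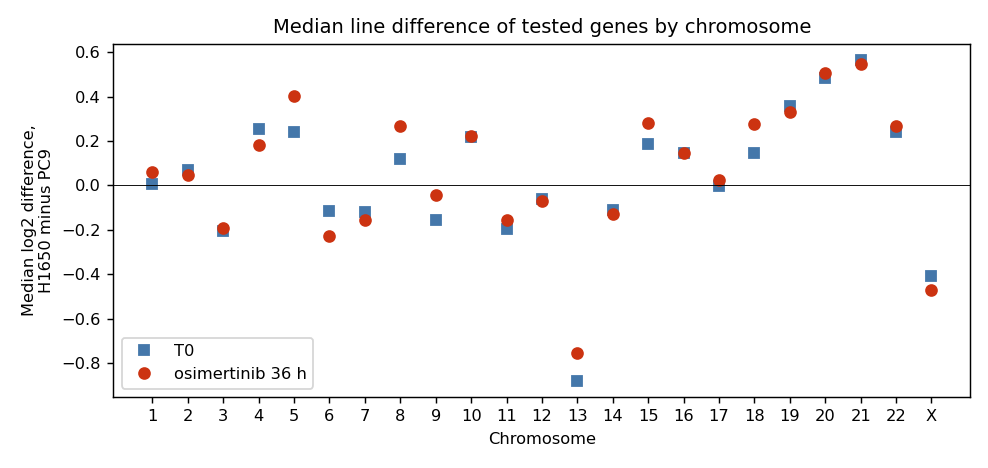
Median log2 difference between H1650 and PC9 over the tested genes of each chromosome (x axis) at T0 (squares) and under osimertinib (circles). Chromosome 13 lies lowest (-0.76 under osimertinib) and chromosome 21 highest (0.55), and the 2 symbols of a chromosome lie at most 0.159 apart.

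Proliferation genes were higher in H1650 throughout in the treated state. All 28 tested E2F replication genes and all 24 tested G2M mitosis genes were higher in H1650, beside 36.6% of all tested genes. The median log2 difference was 2.62 for the E2F list and 2.22 for the G2M list, beside 0.01 over all tested genes. At T0 the medians were -0.11 and -0.05, with 10 E2F genes higher in H1650 and 13 higher in PC9, beside 35.8% and 33.8% of all tested genes. The change was called toward H1650 for 28 of 28 and 24 of 24 genes, beside 21.5% of all tested genes. E2F1, the factor that activates the replication genes, had 5.87 and 7.12 CPM in PC9 and 177.7 and 209.7 CPM in H1650 (log2 difference 4.91 ± 0.12, SE, adjusted p = 1.85e-23). E2F1 was also higher in H1650 at T0, by 1.58. E2F2 had 29.64 and 30.01 CPM in PC9 and 30.6 and 27.97 CPM in H1650 at T0, and 1.06 and 1.96 against 22.67 and 24.72 CPM under osimertinib. The lines overlapped at T0 and stood apart under the drug (log2 difference 4.0 ± 0.19, adjusted p = 8.54e-17).

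Among the replication genes, the smallest difference was that of the helicase subunit MCM7, with 130 and 131 CPM in PC9 and 143 and 153 CPM in H1650 (0.18, adjusted p = 0.0218), after a T0 difference of -1.22. Its partner MCM5 had 16.8 and 16.9 CPM in PC9 and 134 and 128 CPM in H1650. RRM2, the ribonucleotide reductase subunit that supplies deoxynucleotides, had 15.1 and 14.3 against 194 and 214 CPM. Of the mitotic genes, the kinase gene AURKA had 17.85 and 19.12 CPM in PC9 and 145.2 and 148.7 CPM in H1650 (2.99 ± 0.08, adjusted p = 5.38e-22). NUF2, a kinetochore subunit, had 3.42 and 2.92 against 30.02 and 34.88 CPM. The proliferation marker MKI67 had 42.9 and 49.5 against 246 and 252 CPM. No library of a line reached the range of the other line for any of these 6 genes. With 2 libraries per line, the same held for genes that did not pass the test, such as BMF and CYRIA. The share over all tested genes is not given here, so the separation is not a result about these 6 genes.

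CDK inhibitors divided, with 5 of 10 higher in H1650 and 4 higher in PC9, beside 36.6% and 35.0% of all tested genes. CDKN1A, which encodes p21, had 311.3 and 287.1 CPM in H1650 and 22.57 and 24.16 CPM in PC9 (3.68 ± 0.10, adjusted p = 3.94e-22), and the T0 difference was 3.37. RBL1, a pocket protein that represses E2F genes, had 33.94 and 36.52 against 5.73 and 5.33 CPM, with a T0 difference of 0.21.

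Promoters of the proliferation genes and of the interferon-stimulated genes, described next, were examined for motifs, since members of each group differed together. RefSeq promoter windows (250 bases before to 50 after the start, GRCh38.p14) were matched for 8815 of the 19108 tested genes. The E2F motif TTTNNCGC, on either strand, was present in 14 of the 19 E2F list promoters matched (73.7%), in 10.1% of all tested promoters, in 10.5% of those of genes higher in H1650 and in 9.7% of those higher in PC9. The G2M list had it in 0 of 17. The interferon element core GAAANNGAA was present in 11 of 16 matched promoters of interferon-stimulated genes (68.8%), in 6.5% of all tested promoters, in 6.8% of those higher in H1650 and in 6.3% of those higher in PC9. The AP-1 motif TGANTCA was in 5.0% of all, 4.7% of H1650-higher and 5.7% of PC9-higher promoters. A match is a description of letters and not a bound site.

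For each of the 2 lists, a stretch of 120 bases before the start is shown for 4 members whose promoter holds the motif before the start. The members shown do not carry all of the largest osimertinib differences of their lists. IFI27 (9.5) is not shown, beside 6.72 for IFI6, 6.46 for IFI44L and 5.86 for IFIT1. RRM2 (3.79) is not shown, beside 3.61 for TYMS and 3.23 for POLE2. Each stretch ends 30 bases past the last match that lies before the start, or at the start where that is nearer. The sequences are RefSeq's, on GRCh38.p14, written 5′ to 3′ on the strand of the gene, and capitals mark each match of the list's motif on either strand. No match of the list's motif overlapped one of the other motifs.
BST2 (chr19:17405716-17405835, minus strand): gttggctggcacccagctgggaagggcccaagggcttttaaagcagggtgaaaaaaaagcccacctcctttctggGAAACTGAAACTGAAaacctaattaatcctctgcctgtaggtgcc
IFI6 (chr1:27672247-27672366, minus strand): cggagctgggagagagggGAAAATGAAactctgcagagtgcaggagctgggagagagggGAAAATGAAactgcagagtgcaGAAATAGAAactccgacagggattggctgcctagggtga
IFI44L (chr1:78620294-78620413, plus strand): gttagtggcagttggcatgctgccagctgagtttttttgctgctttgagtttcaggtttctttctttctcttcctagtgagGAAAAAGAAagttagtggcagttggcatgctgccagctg
IFIT1 (chr10:89392440-89392559, plus strand): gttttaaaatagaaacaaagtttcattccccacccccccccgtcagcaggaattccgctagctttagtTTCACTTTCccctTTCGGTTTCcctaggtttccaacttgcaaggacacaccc
E2F1 (chr20:33686386-33686505, minus strand): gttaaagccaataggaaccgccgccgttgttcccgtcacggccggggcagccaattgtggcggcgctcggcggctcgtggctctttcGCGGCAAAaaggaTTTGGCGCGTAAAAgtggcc
E2F2 (chr1:23531234-23531353, minus strand): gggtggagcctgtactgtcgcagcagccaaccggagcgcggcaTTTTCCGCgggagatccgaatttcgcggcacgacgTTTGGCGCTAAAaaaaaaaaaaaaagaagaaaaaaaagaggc
TYMS (chr18:657532-657651, plus strand): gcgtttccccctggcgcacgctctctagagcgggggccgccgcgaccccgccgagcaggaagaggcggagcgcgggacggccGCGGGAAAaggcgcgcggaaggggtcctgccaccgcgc
POLE2 (chr14:49688258-49688377, minus strand): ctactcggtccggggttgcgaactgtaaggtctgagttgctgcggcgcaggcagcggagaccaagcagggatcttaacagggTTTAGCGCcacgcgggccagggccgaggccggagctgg
BST2 holds 2 overlapping interferon element cores and IFI6 holds 3 separate ones, while E2F1 and E2F2 hold 3 E2F matches each in the bases shown.

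Interferon-stimulated genes were higher in H1650 in both states. Under osimertinib 30 of 32 tested genes were higher in H1650 and 2 in PC9 (median 3.88), beside 36.6% and 35.0% of all tested genes. At T0 30 were higher in H1650 and 1 in PC9 (median 3.25), beside 35.8% and 33.8%. The change was called toward H1650 for 8 and toward PC9 for 10, beside 21.5% and 20.5% of all tested genes. BST2, which tethers virions to the cell surface, had 703.9 and 660.4 CPM in H1650 and 0.74 and 1.12 CPM in PC9 (9.54 ± 0.14, adjusted p = 4.15e-28). IFI27 had 705.6 and 629.6 against 0.69 and 1.18 CPM. MX1, a GTPase that restricts viruses, had 932 and 858 against 8.51 and 8.35 CPM.

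Among the transcription factor genes of the pathway, STAT2 had 218 and 244 CPM in H1650 and 144 and 136 CPM in PC9. STAT2 had risen in PC9 from 22.4 and 21.6 CPM at T0, and its line difference narrowed from 2.41 to 0.73 (adjusted p of the change = 6.49e-13). IFIT2 narrowed in the same way, from 3.82 to 0.89. OAS3, a sensor enzyme of double-stranded RNA, widened from 2.25 to 5.35, with 17.6 and 15.9 CPM in PC9 under osimertinib and 64 and 67.4 CPM at T0. The 2 exceptions were IRF7, the factor that amplifies type I interferon, with 10.3 and 10.4 CPM in PC9 and 0.19 and 0.04 CPM in H1650, and MX2, with 7.12 and 6.33 against 1.05 and 0.98 CPM.

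Antigen presentation genes were mostly higher in H1650. Of 15 class I genes, 12 were higher in H1650 and 2 in PC9 (median 0.87, against 1.35 at T0), beside 36.6% and 35.0% of all tested genes. HLA-C had 1451 and 1187 CPM in H1650 and 376 and 383.1 CPM in PC9, and HLA-B had 379 and 319.4 against 97.85 and 105.7 CPM. Their RefSeq positions lie apart, but exons of the 2 genes overlap in GENCODE 29 and the genes resemble each other in sequence. Reads may therefore be divided between them. PSMB9, an immunoproteasome subunit, turned from 0.76 at T0 to -0.45 under osimertinib, with 35.93 and 40.03 CPM in PC9 and 28.93 and 26.59 CPM in H1650, and it overlaps PSMB8 on the opposite strand. Of 10 class II genes, 7 were higher in H1650, most at low levels, and 2 in PC9, beside the same shares of all tested genes. The 2 were CTSS and CD74. CTSS had 27.47 and 29.66 CPM in PC9 and 1.15 and 0.98 CPM in H1650 (-4.74). CD74 had 42.45 and 48.04 against 40 and 29.66 CPM (-0.38, and -0.18 without H1650 replicate 2). The class II transactivator CIITA had 9.69 and 10.6 CPM in H1650 and 2.45 and 2.35 CPM in PC9, with a T0 difference of -0.14.

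Genes that report ERK output moved toward H1650 in most cases, and 9 of 22 changed sides, beside 6.9% of all tested genes. At T0, 17 of 22 were higher in PC9 and 4 in H1650 (median -1.13), beside 33.8% and 35.8% of all tested genes. Under osimertinib 5 were higher in PC9 and 12 in H1650 (median 1.06), beside 35.0% and 36.6% of all tested genes. The change was called toward H1650 for 18 genes and toward PC9 for 3, beside 21.5% and 20.5% of all tested genes. The 9 that were called higher in PC9 at T0 and in H1650 under osimertinib included 3 Sprouty and 2 SPRED genes, DUSP6 and ETV5, and 5 genes were higher in PC9 in both states. ETV5, an ETS factor induced by ERK, had 62.06 and 63.53 CPM in PC9 and 5.22 and 6.56 CPM in H1650 at T0. Under osimertinib it had 0.37 and 0.39 CPM in PC9 and 5.11 and 4.59 CPM in H1650. DUSP6, a phosphatase that acts on ERK, had 0.37 and 0.34 CPM in PC9 and 1.58 and 1.43 CPM in H1650 under the drug (2.06, adjusted p = 7.21e-05), after a T0 difference of -2.86. SPRED2, which restrains RAS signalling, had 2.82 and 3.20 against 45.54 and 41.82 CPM (3.86 ± 0.13, adjusted p = 1.56e-20), and -0.73 at T0.

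ETV1, of the same ETS group, had 40.48 and 43.92 CPM in H1650 and 3 reads over both PC9 libraries, a ratio of 556 with a 95% exact interval of 190 to 2700 that covers counting error only. At T0 its difference was 1.29. ETV4 did not pass the test under osimertinib (0.25, adjusted p = 0.337, and 0.65, adjusted p = 0.0426, without PC9 replicate 2), with 1.53 and 2.58 CPM in PC9 and 2.29 and 2.49 CPM in H1650 under osimertinib, after 99.16 and 98.42 against 4.66 and 4.01 CPM at T0. ETV4 overlaps DHX8 on the opposite strand, which had 5246 reads over the 4 osimertinib libraries against 183 for ETV4. DUSP4 stayed higher in PC9, with 16 and 14.46 against 4.96 and 6.41 CPM. EPHA4, an ephrin receptor, was the opposite of most of the list, with 67.84 and 66.83 CPM in PC9 and 2.82 and 3.47 CPM in H1650 (-4.41 ± 0.15, adjusted p = 4.76e-20). The immediate early genes FOS and EGR1 did not pass the test under osimertinib (-0.10 and -0.04), after T0 differences of 2.86 and 3.87.

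Receptors and ligands differed in both directions. Of 15 ERBB genes, 9 were higher in H1650 and 5 in PC9, beside 36.6% and 35.0% of all tested genes. EGFR had 738.7 and 777.5 CPM in PC9 and 611.3 and 570.8 CPM in H1650 (-0.36 ± 0.07, adjusted p = 0.000112), which was less than the T0 difference of -1.01. ERRFI1, a cytoplasmic inhibitor of EGFR, had 215 and 222 CPM in H1650 and 32.05 and 31.79 CPM in PC9 (2.77 ± 0.08, adjusted p = 1.21e-21). ERBB3, the kinase-poor partner that couples to PI3K, had 277.9 and 281 CPM in PC9 and 59.33 and 60.57 CPM in H1650. EPGN, an EGFR ligand, had 77.47 and 84.23 CPM in H1650 and 3.47 and 2.92 CPM in PC9.

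Of 20 bypass receptor kinase genes and their ligands, 11 were higher in H1650 and 7 in PC9. Over all tested genes the shares were 36.6% and 35.0%. FGF2, a ligand of FGF receptors, had 136.1 and 148.9 CPM in H1650 and 2.59 and 2.92 CPM in PC9 (5.70 ± 0.14, adjusted p = 1.12e-23). IGFBP3, which sequesters IGF, had 5872 and 5966 CPM in PC9 and 713.1 and 619.7 CPM in H1650, a turn from 0.48 at T0 to -3.15. AXL, a receptor kinase, had 323 and 350 against 63.3 and 60.8 CPM, and GAS6, its ligand, 130.9 and 129.1 against 24.72 and 21.56 CPM, both higher in PC9.

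PI3K pathway genes divided, with 8 of 25 higher in H1650 and 12 in PC9, beside 36.6% and 35.0% of all tested genes. Their median was -0.17. PIK3IP1, an inhibitor of PI3K, had 79.72 and 86.61 CPM in PC9 and 3.34 and 3.47 CPM in H1650 (-4.61 ± 0.12, adjusted p = 1.18e-22), a turn from 0.93 at T0. IRS1 and IRS2, adaptors that link insulin and IGF receptors to PI3K, were higher in PC9 in both states, IRS1 with 84.72 and 81.68 against 8.88 and 8.91 CPM. PHLPP2, a phosphatase of AKT, had 95.27 and 88.01 CPM in H1650 and 8.88 and 8.35 CPM in PC9, and it overlaps MARVELD3 on the opposite strand.

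Apoptosis genes differed in both directions, most by less than 2-fold. Of 8 BH3-only genes, 4 were higher in H1650 and 1 in PC9, beside 36.6% and 35.0% of all tested genes. Their median was 0.22, against 0.81 at T0. BMF had 85.37 and 85.89 CPM in PC9 and 94.03 and 95.05 CPM in H1650 (0.14 ± 0.08, adjusted p = 0.128, and 0.0406 with the replicate number as a block), after 1.76 and 1.09 against 28.31 and 30.83 CPM at T0. The difference at T0 was 4.37, and its fall by 4.23 passed the test (adjusted p = 6.60e-17). BBC3, which encodes PUMA, had 18.87 and 18.5 CPM in PC9 and 17.14 and 13.99 CPM in H1650 (-0.27 ± 0.16, adjusted p = 0.134). PMAIP1, which encodes NOXA, had 18.31 and 19 against 35.7 and 28.73 CPM (0.79 ± 0.11, adjusted p = 6.50e-07). BID, which is cleaved by caspase 8, had 33.94 and 32.46 against 63.34 and 64.14 CPM. BIK, at 6.2 and 5.89 CPM in PC9 and 0.57 and 0.80 CPM in H1650, was the member higher in PC9.

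Of the anti-apoptotic genes, BCL2L1 was higher in H1650 and MCL1 and BCL2 were higher in PC9. MCL1 had 326.2 and 321.7 CPM in PC9 and 241.9 and 232.9 CPM in H1650 (-0.45 ± 0.07, adjusted p = 9.59e-07). BCL2 was low in both, with 0.97 and 1.18 against 0.19 and 0.31 CPM. Among the pore-forming effectors, BAX had 63.45 and 74.73 CPM in PC9 and 46.59 and 43.78 CPM in H1650 (-0.61 ± 0.09, adjusted p = 5.82e-07), while BAK1 had 25.34 and 29.21 against 37.13 and 33.98 CPM (0.39 ± 0.11, adjusted p = 0.00203, and 0.06 without PC9 replicate 1). BOK, the third effector, had the largest difference of the effectors, with 197.4 and 183.5 CPM in PC9 and 71.07 and 64.23 CPM in H1650 (-1.49 ± 0.09, adjusted p = 2.31e-14), after a T0 difference of -0.24. BAX and BAK1 differed in opposite directions by less than 2-fold.

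Of 16 apoptosome, caspase and IAP genes, 7 were higher in H1650 and 8 in PC9, beside 36.6% and 35.0% of all tested genes. CYCS, cytochrome c, had 331.2 and 352.4 CPM in H1650 and 84.12 and 86.39 CPM in PC9, and processed copies of this gene may take or lend reads. BIRC3, an IAP, had 30.29 and 28.65 CPM in PC9 and 4.63 and 4.19 CPM in H1650. BIRC5, survivin, which is also a mitotic gene, had 20.76 and 25.45 against 98.04 and 106 CPM. Of 11 death receptor genes, 3 were higher in H1650 and 4 in PC9, beside 36.6% and 35.0% of all tested genes. The death ligand gene TNFSF10 had 26.13 and 33.86 CPM in PC9 and 11.89 and 11.58 CPM in H1650, after T0 levels of 1.56 and 1.53 against 0.93 and 1.74 CPM.

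**Figure D4:**
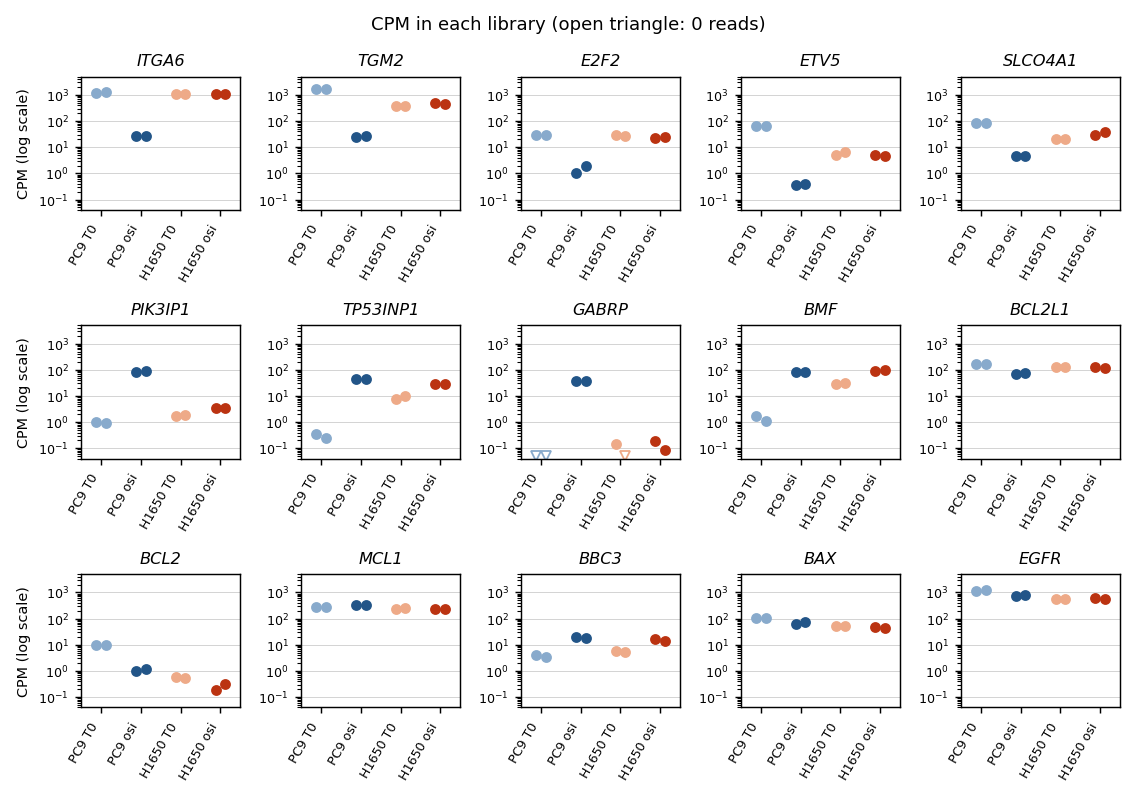
CPM (log axis) of 15 genes in each T0 and osimertinib library of PC9 (blue) and H1650 (red), 1 point per library, with an open triangle for 0 reads. ITGA6 and E2F2 are alike in the lines at T0 and separate under osimertinib, TGM2, ETV5, SLCO4A1 and PIK3IP1 change order, and BMF is separate at T0 and alike under osimertinib.

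Other genes were alike at T0 and apart under osimertinib, or turned. ITGA6, the laminin-binding integrin subunit, lies at chr2:172427336-172506459. It had 1168 and 1251 CPM in PC9 and 1103 and 1117 CPM in H1650 at T0, and 26.68 and 26.4 CPM in PC9 and 1070 and 1084 CPM in H1650 under osimertinib (5.34 ± 0.09, adjusted p = 3.35e-27). Under erlotinib the line difference was 4.47. SLCO4A1, an organic anion transporter, turned from 82.73 and 84.36 against 21.46 and 20.8 CPM at T0 to 4.76 and 4.49 against 30.64 and 37.99 CPM. TP53INP1, a p53-induced stress gene, had 0.35 and 0.25 CPM in PC9 and 7.56 and 10.15 CPM in H1650 at T0, and 45.64 and 45.3 against 27.83 and 28.77 CPM under osimertinib. GABRP, a GABA receptor subunit, had 0 reads in PC9 at T0 and 36.02 and 36.83 CPM under osimertinib, against 0.19 and 0.09 CPM in H1650. SLC7A7, an amino acid transporter subunit, had 43.47 and 41.99 CPM in PC9 and 0.24 and 0.31 CPM in H1650, after 0.66 and 0.44 against 0.33 and 1.08 CPM at T0.

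Of the genes that closed, CYRIA, a regulator of RAC1 signalling, had 16.93 and 19.45 CPM in PC9 and 15.89 and 16.17 CPM in H1650 under osimertinib (-0.18 ± 0.13, adjusted p = 0.237), after 0.50 and 0.44 against 11.8 and 10.11 CPM at T0. ACSL5, a fatty acid activating enzyme, had 20.86 and 21.92 against 20.29 and 19.11 CPM, after 34.79 and 38.5 against 5.64 and 6.14 CPM, and it overlaps ZDHHC6 on the opposite strand.

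PC9 was higher for the antioxidant enzymes of the NRF2 program in both states. Under osimertinib, 21 of 22 genes were higher in PC9 and HMOX1 alone was higher in H1650, beside 35.0% of all tested genes higher in PC9. The median was -2.59, and -2.12 at T0. AKR1C2, an aldo-keto reductase, had 1331 and 1276 CPM in PC9 and 0.14 and 0.18 CPM in H1650, and AKR1C3 had 1180 and 1243 against 1.24 and 1.65 CPM. The AKR1C genes are close copies of each other, so their reads may be divided uncertainly. The cystine transporter SLC7A11 had 354 and 350 CPM in PC9 and 21.9 and 21.5 CPM in H1650. NFE2L2 itself, which encodes NRF2, had 219 and 250 CPM in PC9 and 110 and 110 CPM in H1650 (-1.09, adjusted p = 3.11e-13), with a T0 difference of -0.12. HMOX1 had 43.34 and 40.98 CPM in H1650 and 19.38 and 25.23 CPM in PC9.

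Of 17 aldehyde dehydrogenases, 12 were higher in PC9 and 5 in H1650, beside 35.0% and 36.6% of all tested genes. ALDH3A1 had 1668 and 1764 CPM in PC9 and 0.38 and 0.40 CPM in H1650 (-12.08 ± 0.14, adjusted p = 2.91e-30). ALDH1A3 had 862.4 and 899.2 against 76.13 and 74.65 CPM, and its difference widened from -1.72 at T0 to -3.55. ALDH1L2, a mitochondrial folate enzyme, had the largest difference toward H1650, with 23.82 and 23.34 against 0.69 and 0.28 CPM, and it overlaps C12orf45 on the opposite strand.

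Keratins were higher in PC9 for 14 of 16 tested genes (median -1.55, against -0.51 at T0), beside 35.0% of all tested genes. KRT13 had 758.2 and 812.5 CPM in PC9 and 4 and 3 reads in H1650, so no fold is given. KRT17, a basal and stress keratin, had 399 and 438.6 against 3.96 and 3.39 CPM, and had 28.48 and 27.79 against 4.66 and 3.74 CPM at T0. KRT7, a simple epithelial keratin, had 4030 and 4140 against 1040 and 921 CPM, after a T0 difference of -0.19. Mucins went both ways, with 3 of 8 higher in H1650 and 4 in PC9, beside 36.6% and 35.0% of all tested genes. MUC20 had 461.8 and 467.7 CPM in PC9 and 0.53 and 0.40 CPM in H1650. MUC4 had 476.4 and 344.4 CPM in PC9 and 1 read over both H1650 libraries, a ratio of 18100 with an exact 95% interval of 3250 to 714000.

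Mesenchymal genes did not separate the lines in 1 direction. Of 24, 10 were higher in H1650 and 11 in PC9, beside 36.6% and 35.0% of all tested genes. The repressors of E-cadherin divided, with SNAI2 at 42.54 and 48.16 CPM in PC9 and 0.14 and 0.09 CPM in H1650, and SNAI1 at 0.79 and 0.90 against 44.49 and 45.12 CPM. MMP2, a collagenase, had 135.4 and 116.7 CPM in H1650 and 3 reads over both PC9 libraries, with an exact 95% interval of the ratio from 566 to 8020. VIM, vimentin, was low in both, with 16.47 and 14.61 CPM in H1650 and 5.18 and 4.54 CPM in PC9.

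Epithelial adhesion genes were higher in H1650 for 7 of 24 and in PC9 for 11, beside 36.6% and 35.0% of all tested genes. CDH1, E-cadherin, had 1422 and 1328 CPM in H1650 and 251 and 278.6 CPM in PC9 (2.38 ± 0.08, adjusted p = 6.94e-21). CLDN3 differed more and in the other direction, with 51.28 and 53.87 CPM in PC9 and 0.53 and 0.45 CPM in H1650 (-6.75). CRB3 had 21.73 and 20.91 CPM in PC9 and 4.77 and 3.21 CPM in H1650. EPCAM did not pass the test, with 317.4 and 306.5 against 273.2 and 306.7 CPM (0.11 ± 0.07, adjusted p = 0.194, and 0.0463 without PC9 replicate 2), after a T0 difference of -1.38. Of 24 lung lineage genes, 16 were below the expression filter. Of the 8 tested, 4 were higher in H1650 and 2 in PC9 (median 0.71), beside 36.6% and 35.0% of all tested genes. FOXA1, a pioneer factor, had 48.42 and 47.71 CPM in PC9 and 4.39 and 3.70 CPM in H1650, and GATA6 had 62.29 and 55.33 against 2.15 and 1.92 CPM. In the other direction, LAMP3 had 44.44 and 36.3 CPM in H1650 and 3.47 and 2.92 CPM in PC9. AGER had 14.84 and 16.97 CPM in H1650 and 7.21 and 7.79 CPM in PC9.

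Targets of YAP and TEAD, which relay cell shape and density to transcription, moved toward PC9. Under osimertinib 14 of 20 were higher in PC9 and 3 in H1650 (median -0.98), beside 35.0% and 36.6% of all tested genes. At T0 8 were higher in PC9 and 11 in H1650 (median 0.41), beside 33.8% and 35.8%. The change was called toward PC9 for 14 genes and toward H1650 for 4, beside 20.5% and 21.5% of all tested genes. CCN2, a secreted matricellular protein, had 30.4 and 26.1 CPM in PC9 and 263 and 261 CPM in H1650 at T0, and 137 and 133 against 46 and 48 CPM under osimertinib. Its line difference went from 3.21 to -1.52. TGFB2 had 284.2 and 263.8 CPM in PC9 and 23.1 and 18.13 CPM in H1650 under the drug, and YAP1 itself kept its order, at 171.7 and 179.7 against 283.9 and 279.4 CPM.

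Metabolic and stress lists showed mixed directions, to be read beside the 36.6% of all tested genes that were higher in H1650 and the 35.0% in PC9. Of 20 ATF4 targets, 13 were higher in H1650 and 5 in PC9 (median 1.15, against 0.40 at T0 and 0.10 under erlotinib, a difference between the drugs that was not tested). MTHFD2, a mitochondrial folate enzyme, had 272.8 and 265.6 CPM in H1650 and 30.29 and 30.22 CPM in PC9 (3.15 ± 0.08, adjusted p = 1.31e-22), while the amino acid transporter SLC7A5 had 453.5 and 384.5 against 2539 and 2574 CPM. Of 25 hypoxia and glycolysis genes, 17 were higher in H1650 and 5 in PC9, with HK2, hexokinase, at 118.6 and 108.0 CPM in H1650 and 19.84 and 20.85 CPM in PC9. Of 22 cholesterol synthesis genes, 15 were higher in H1650 and 6 in PC9. Of 18 chemokine and NF-kB genes, 8 were higher in H1650 and 6 in PC9, with CCL5 at 39.66 and 38.79 CPM in H1650 and 4 reads over the PC9 libraries, and ICAM1 at 95.22 and 104.2 CPM in PC9 and 2.10 and 2.76 CPM in H1650.

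**Figure D5:**
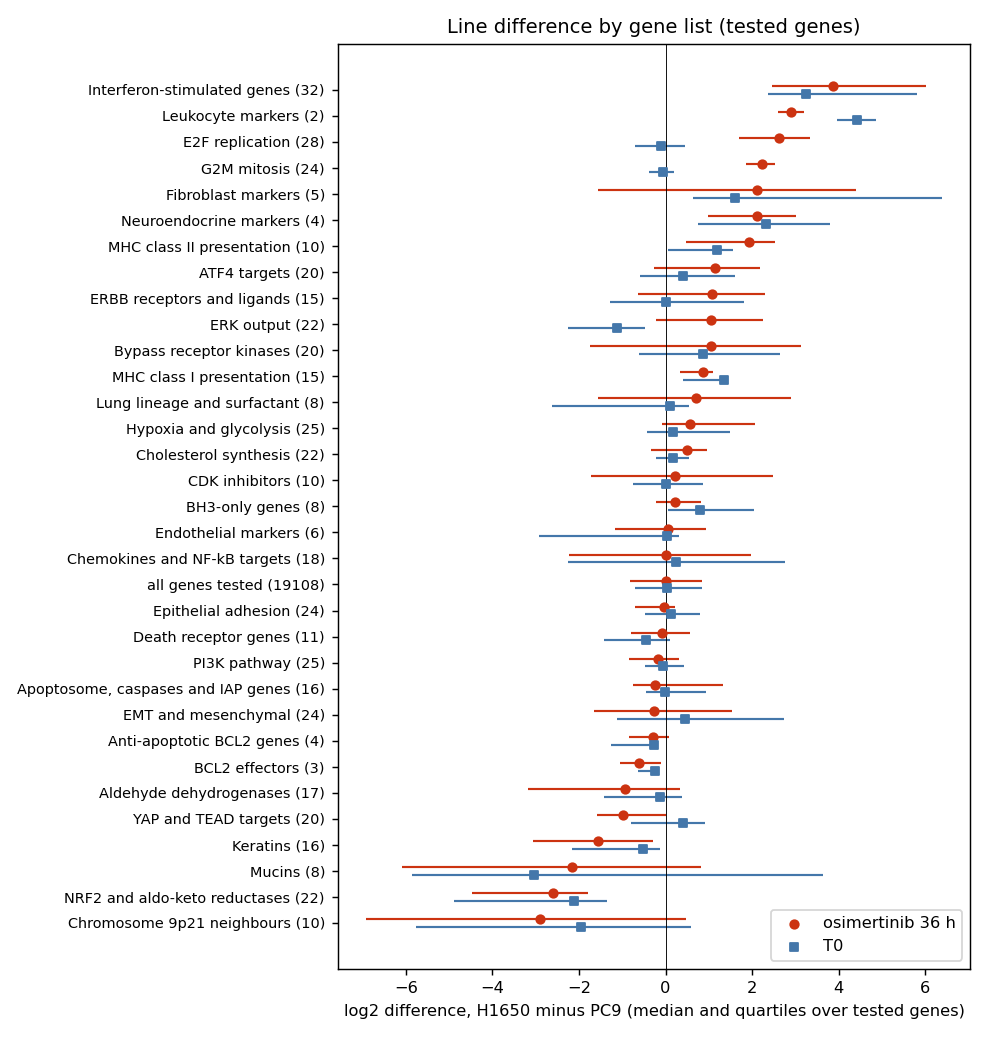
Median (symbols) and quartiles (lines) of the log2 difference between H1650 and PC9 over the tested genes of each list, at T0 (squares) and under osimertinib (circles), with the number of tested genes in brackets; medians set genes with 0 reads in a line to their bound. The E2F and G2M lists sit near 0 at T0 and at 2.62 and 2.22 under osimertinib, and the interferon list lies above 3 in both states.

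Most line differences were also present under erlotinib. Of the 13688 genes called under osimertinib, 12130 (88.6%) were called in the same direction under erlotinib and 54 in the opposite direction. Of all 19108 tested genes, 13774 (72.1%) were called under erlotinib in either direction, and 63.5% were called under both drugs in 1 direction. The differences under the 2 drugs share no library, and across the 19108 genes their Pearson r was 0.945 and their Spearman rho 0.93. TGM2, a transglutaminase, differed by 4.25 under osimertinib and 4.95 under erlotinib, and E2F1 by 4.91 and 6.05. BMF, which did not pass the test under osimertinib, differed by -0.26 under erlotinib (adjusted p = 0.00751). A difference between the drugs in these values was not tested.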

How the data were processed

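RNA-seq libraries of PC9 and H1650 at T0 and after 36 h with osimertinib or erlotinib were used, 2 per group by their labels. The authors processed reads with DolphinNext, and the deposited values are whole-number counts per gene from featureCounts, without normalization. The submitters' processing notes name GRCh38 and DESeq2; the aligner, the annotation and the strandedness are not given in the sources used here. Unstranded counting would mix overlapping genes on opposite strands.

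The counts went through edgeR 4.0.16 (R 4.3.3), with its filter on low expression, TMM factors (0.941 to 1.08) and a quasi-likelihood fit of 6 groups to all 12 libraries (6 residual and 20.7 prior degrees of freedom, biological coefficient of variation 0.0656). The contrasts were H1650 minus PC9 under osimertinib, at T0 and under erlotinib, and the osimertinib minus T0 change. Genes with an adjusted p under 0.05 were called. Standard errors come from the F statistic. CPM use TMM library sizes. The 32 gene lists hold 546 genes, of which 545 are in the table and 487 were tested. The fit was tested on simulated data.

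Named genes are the 6 highest and lowest differences, 3 each way of the genes that turned, opened or closed, the 2 highest and 2 lowest called members of each list (mean over the libraries of 10 CPM or more), and 17 fixed genes; further list members were named after their values were seen, and some genes the rule names are not reported here. The members and lists were chosen with earlier results of these data known. Positions and promoters are RefSeq's on GRCh38.p14, and exon overlaps come from GENCODE 29. Alternatives were DESeq2 1.42.0, RLE and upper quartile scaling, other filters and thresholds, a fit of 4 libraries, the replicate number as a block and fits that left out 1 library.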

Additional observations from a re-analysis of the deposited data

Results flagged for a closer look

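The change of the line difference from T0 to osimertinib was tested directly with the drug-by-line term. A called change was a condition for naming the 18 genes of turned, opened or closed differences. That these genes passed is therefore no further support. GABRP passed only with both H1650 T0 libraries, and its value was -7.99 without replicate 1. The difference moved toward H1650 on the log2 scale by 7.06 for ETV5, 6.44 for TGM2, 4.87 for SLCO4A1, 5.47 for ITGA6, 4.03 for E2F2, 3.69 for GGT1, 4.77 for ETV4, 2.74 for BSPRY and 2.52 for ACSL5. It moved toward PC9 by -7.88 for AL590004.3, -5.55 for TP53INP1, -5.54 for PIK3IP1, -11.6 for GABRP, -7.66 for SLC7A7, -6.09 for LINC02577, -4.74 for DCLK2, -4.69 for CYRIA and -4.23 for BMF. GABRP had 0 reads in PC9 at T0, so its value depends on the prior count and is not a bound. GGT1 shares exons with SNRPD3, ETV5 with DGKG, and TGM2 with RPRD1B on the opposite strand, each with at least 10% of the gene's reads.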

How the results depend on the processing

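The number of genes called between the lines under osimertinib stayed within 1.5 times of 13688 under each alternative to the tool, scaling, filter, fitted libraries and adjusted p threshold (9971 to 13968; DESeq2 called 12973, of which 12938 were shared), and leaving out 1 osimertinib library gave 12565 to 12900, with the lone library assumed to vary like the other groups. Requiring a difference over 2-fold gave 7813 (3954 higher in H1650 and 3859 in PC9), 7184 at T0, 7771 under erlotinib, 3841 changes, 4715 calls in the T0 direction, 188 opposite to it and 6635 shared by both drugs. With at least 10 counts in every library, 1938 calls were not made at T0.

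The replicate numbers did not pair the samples (correlations of deviations from -0.0553 to 0.211 over 15 group pairs, -0.0553 for osimertinib). With the number as a block 13968 genes were called, and of the named genes BMF passed the test (0.14, adjusted p = 0.0406).

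Without 1 library, DCLK2 ranged from -0.282 to 0.0891 (0.0139 without H1650 replicate 2), and ETV4 from -0.107 to 0.65 (adjusted p = 0.0426 without PC9 replicate 2). BAK1 reached 0.28 (adjusted p = 0.060 without PC9 replicate 1), EPCAM 0.19 (adjusted p = 0.0463 without PC9 replicate 2) and GABRP's change -7.99 (adjusted p = 1 without H1650 T0 replicate 1). CD74 ranged from -0.611 to -0.181 and lost its call without PC9 replicate 2 (-0.29, adjusted p = 0.0731) and without H1650 replicate 2 (-0.18, adjusted p = 0.209). With 4 libraries alone BBC3 was -0.28 (adjusted p = 0.047). Some list medians turned sign, from near 0 for chemokine and NF-kB genes (-0.0015 with DESeq2, -0.00539 with RLE, -0.0297 with upper quartile scaling, -0.0352 with at least 10 counts, -0.0236 with 4 libraries), epithelial adhesion (-0.152 to 0.0618 without 1 library) and endothelial markers (-0.0655 with no filter, -0.113 with at least 10 counts, -0.102 with 4 libraries, -0.123 to 0.319 without 1 library). Larger medians turned under another filter, from 1.05 to -0.0942 for bypass receptor kinases and from -3.07 to 0.706 for 9p21 neighbours with at least 10 counts, from 4.40 to -0.524 (no filter) and -1.6 (at least 10 counts) for fibroblast markers, and from 2.90 to -0.211 for leukocyte markers with no filter. Filters change which genes are in a list; other causes were not tested. With 2 libraries per group, levels under 0.168 CPM cannot be told from 0.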
